A study of Rattus norvegicus with 4 samples.

Results

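Transcripts of the oxidative phosphorylation subunits were examined in droplet-based single-nucleus RNA sequencing of 2 rat adipose tissues. The set was taken by gene symbol and not by any measured value. It holds every gene whose symbol starts with Mt-, Ndufa, Ndufb, Ndufc, Ndufs, Ndufv, Uqcr, Atp5, Cox4i, Cox5, Cox6, Cox7 or Cox8 followed by subunit characters, with Cox8b left out, plus Sdha, Sdhb, Sdhc and Sdhd. This gave 101 of the 32883 genes counted, of which 13 are encoded by mitochondrial DNA and 88 by nuclear DNA. Complex I has 7 mitochondrial and 40 nuclear members, complex II has 4 nuclear members, complex III has 1 and 9, complex IV has 3 and 18, and complex V has 2 and 17. The symbols Cox6b1, Ndufa10l1, Ndufv3 and Uqcrb each stand for 2 gene identifiers, and assembly factors and the pseudogene Cox6c-ps1 are not members.

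The tissue came from untreated male Dahl salt-sensitive rats of the substrain SS/HsdMcwiCrl at an age of 16 weeks. The 2 groups are perivascular fat of the thoracic aorta (taPVAT) and subscapular brown fat (BAT), with 2 libraries each, and no group carries a transgene or received an agent. About 50 mg of frozen tissue went into each nuclei preparation, with a target of 10000 nuclei. The libraries of a tissue are named replicate 1 and replicate 2, and the labels do not say whether the same rat gave both tissues.

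Oxidative phosphorylation couples electron transfer through complexes I to IV of the inner mitochondrial membrane to ATP synthesis by complex V. Complexes I, III, IV and V join subunits made inside the mitochondrion from its own DNA with subunits whose mRNAs leave the nucleus and are translated in the cytosol, while complex II is wholly nuclear encoded. In brown adipocytes uncoupling protein 1 lets the proton gradient run down as heat, so respiratory chain transcripts are abundant in this tissue. A transcript of mitochondrial DNA is made in the mitochondrion and a mature subunit mRNA sits mostly in the cytoplasm, so in a nuclear preparation both can enter a droplet from outside the nucleus.

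Nuclear respiratory factor 1 (NRF1) is known as a regulator of some nuclear encoded subunit genes. Its binding motif (GCGCA, then any base, then GCGC) was searched on both strands in the 250 bases before the start of each gene in RefSeq (build GRCr8). Promoters were looked up by symbol, or by gene identifier where the symbol gave none, and were found for 73 of the 84 nuclear member symbols. The motif stood in 11 of these 73, or 15.1%, and in 1256 of 33469 promoters of all genes, or 3.75%. Windows of 30 bases around it are shown for the 5 of these members that were called higher than in fibroblast-gated nuclei (Sdha, Ndufa5 and 1 of the 2 identifiers of Ndufv3) or whose levels are given below (Atp5mc2, Ndufs6), 5′ to 3′ on the gene's strand, with the motif match in capitals. In the window of Ndufs6 the motif reads on the opposite strand. A match is a description of the letters and not evidence of binding.
Sdha, chr1:30764454-30764483, plus strand: cgtttgcagaGCGCAGGCGCaccaccactc
Sdha, chr1:30764497-30764526, plus strand: ggagcgtgttGCGCAGGCGCagagccttcc
Ndufa5, chr4:53971248-53971277, minus strand: cgtatgagctGCGCAGGCGCaaatctctcc
Ndufv3, chr20:9613737-9613766, plus strand: cagaatgcgcGCGCAAGCGCttggccccac
Atp5mc2, chr7:135678255-135678284, minus strand: ggctctagtcGCGCATGCGCagagccttct
Ndufs6, chr1:31797364-31797393, plus strand: cgaatgctgtGCGCCTGCGCcggcgctctg
The windows of Sdha, which encodes the flavoprotein of succinate dehydrogenase, and of Ndufa5 hold the same 10 letters GCGCAGGCGC. The motif AAGATGGCG of the factor YY1 stood in 1 of the 73 members (Atp5pf) and in 0.693% of all promoters, and the motif TCAAGGTCA of the estrogen-related receptors stood in 1 (Atp5mc3) and in 0.388%.

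The deposited matrices held 14765 to 44637 barcodes and 63654436 to 158140959 counts of unique molecular identifiers (UMIs) per library. Barcodes with at least 500 genes that were not removed as doublets gave 38346 and 11520 nuclei for the taPVAT libraries and 28151 and 22690 for the BAT libraries, replicate 1 first here and throughout. Between any pair of libraries, 126 to 424 barcodes were shared, at most 1.29% of the smaller library. Nuclei were placed by marker UMIs into gates, which took 71643 as adipocyte-like, 6837 as vascular endothelial-like, 3123 as fibroblast-like, 1526 as mural-like, 1102 as myeloid-like and 565 as T or NK lymphocyte-like, while 15.3% entered no gate. The other gates are not free of adipocyte RNA: the 12 adipocyte markers had medians of 59.5% to 82.1% of their adipocyte-gate level in the mural gate and between these bounds in the fibroblast, vascular endothelial, myeloid and lymphocyte gates. Each difference between gates below is therefore a difference between mixtures. At the lowest UMI count the gate allowed were 22% of fibroblast-gated, 10.9% of vascular endothelial-gated, 26.6% of myeloid-gated and 0.214% of adipocyte-gated nuclei.

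Mitochondrial transcripts were the larger share in every library. The 13 mitochondrial members made up 6.82% and 6.59% of all UMIs in the taPVAT libraries, and 6.62% and 8.93% in the BAT libraries. BAT replicate 2 stood above the other 3 libraries. The 88 nuclear members made up 1.38% and 1.15% of the UMIs that are not mitochondrial in the taPVAT libraries, and 1.37% and 1.49% in the BAT libraries. Here taPVAT replicate 2 was lowest. For every UMI of a nuclear member there were 5.29, 6.11, 5.18 and 6.56 UMIs of mitochondrial members in the same order of libraries, so replicate 2 of either tissue lay above replicate 1. In adipocyte-gated nuclei the mitochondrial share ran from 5.97% to 8.98% over the libraries, and counting error of this share is small beside that spread. Its 95% Wilson interval in taPVAT replicate 1 was 6.51% to 6.52%. The interval covers counting error only and does not apply to the ratios above.

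Within the mitochondrial UMIs, the 3 cytochrome c oxidase subunits of complex IV, its catalytic core, took 52.5% to 55.5% in the 4 libraries, although the nuclear members of complex IV took only 19.2% to 21.5% of nuclear member UMIs. Mt-co2, the subunit that accepts electrons from cytochrome c, had 14332 and 12693 UMIs per 1000000 UMIs of the library or gate (CPM) in the taPVAT libraries and 12811 and 20549 CPM in the BAT libraries. Mt-cyb, the haem-bearing core of complex III, had 6594 and 6646 CPM in taPVAT and 5625 and 10874 CPM in BAT. Both were highest in BAT replicate 2, while BAT replicate 1 lay at or below the taPVAT libraries for Mt-cyb, so the tissues overlapped. Mt-atp6, the membrane subunit through which protons enter the rotor of complex V, went the other way within BAT, with 8440 CPM in replicate 1 and 7827 CPM in replicate 2, against 6619 and 7336 CPM in taPVAT. Its BAT libraries both lay above both taPVAT libraries. Mt-nd6, the only protein gene on the light strand of the mitochondrial DNA, had 162, 113, 126 and 244 CPM. These values are shares of UMIs and are not divided by gene length, so they do not order the genes by number of transcripts.

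The nuclear members with the most UMIs in adipocyte-gated nuclei were, by complex, Ndufs4, Ndufa4 and Ndufa10l1 for complex I, Sdhb, Sdha and Sdhc for complex II, Uqcrc2, Uqcrh and Uqcrq for complex III, Cox4i1, Cox6c and Cox7b for complex IV, and Atp5f1b, Atp5mg and Atp5f1c for complex V. Atp5f1b, the catalytic beta subunit of the ATP synthase, had 606 and 425 CPM in taPVAT and 549 and 600 CPM in BAT. Cox4i1, the common isoform of the regulatory subunit 4, had 503 and 330 CPM in taPVAT and 512 and 541 CPM in BAT. Both were lowest in taPVAT replicate 2. Sdhb, which carries the iron-sulphur clusters of succinate dehydrogenase, had 373, 412, 455 and 396 CPM and was not lowest there. Ndufs4, an accessory subunit needed for stable complex I, had 331, 358, 314 and 310 CPM, with both taPVAT libraries above both BAT libraries. Ndufa4, listed under complex I by its name, is known as a subunit of complex IV.

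The mitochondrial share was lower in adipocyte-gated nuclei than in each other gate with values in all 4 libraries, and this held within every library. The order depended on which nuclei entered: among nuclei with at least 1000 genes the share was above that of the adipocyte gate in 3 of 4 libraries for the fibroblast, vascular endothelial and lymphocyte gates, in 4 for the myeloid gate and in 1 for the mural gate. With all gated nuclei it was 6.52% and 5.97% in the adipocyte gate of the taPVAT libraries, and 6.22% and 8.98% in that of the BAT libraries. The fibroblast gate had 8.43%, 11.2%, 8.40% and 10.5%, and the vascular endothelial gate had 8.88%, 12.4%, 10.6% and 10.4% in the same order. The myeloid gate had 8.42%, 10.5%, 9.34% and 11.9%. In the mural gate, of smooth muscle cells and pericytes, it ran from 7.56% to 10.7%. Depth moved with this difference: median UMIs per nucleus were 2734 to 4874 in the adipocyte gate and 1770 to 1841 in the vascular endothelial gate, and its part in the difference was not tested. The nuclear member share of the UMIs that are not mitochondrial spread less, with 1.14% to 1.52% in the adipocyte gate. It was higher than in the adipocyte gate of the same library in 4 of 4 libraries for the vascular endothelial gate (1.40% to 1.66%), the mural gate (1.27% to 1.62%) and the myeloid gate (1.27% to 1.67%), and in 3 of 4 for the fibroblast gate (1.26% to 1.49%) and the lymphocyte gate (1.24% to 1.73%).

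**Figure D1:**
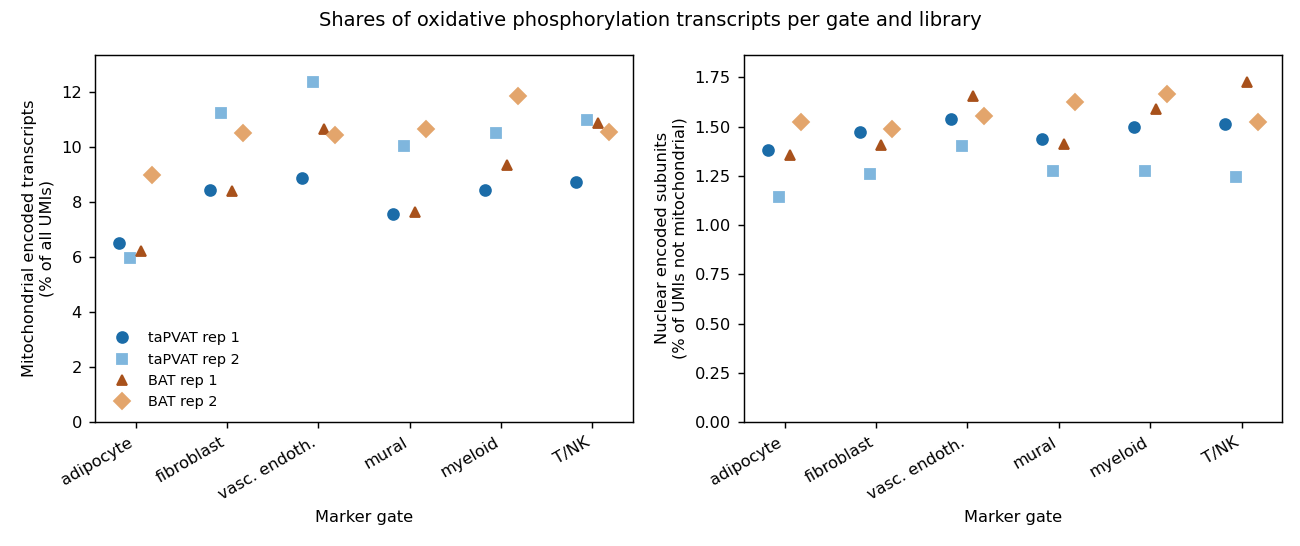
Share of UMIs from the 13 mitochondrial members (left, % of all UMIs) and from the 88 nuclear members (right, % of UMIs that are not mitochondrial) in 6 marker gates. Each point is 1 library, and with all gated nuclei the adipocyte gate has the lowest mitochondrial share within each library, 5.97% to 8.98%, an order that did not hold in every library among nuclei with at least 1000 genes.

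Mitochondrial, nuclear and other UMIs were also followed across depth. In adipocyte-gated nuclei of taPVAT replicate 1 with 500 to 1000 UMIs, a nucleus held on average 181 mitochondrial UMIs, 25.6 UMIs of nuclear members and 698 UMIs of all other genes outside the cytosolic ribosomal proteins. In nuclei with at least 8000 UMIs of the same library it held 300, 90.8 and 9793. Mitochondrial UMIs per nucleus thus grew less with depth than those of the other genes, and nuclear members lay between. BAT replicate 1 went from 218 to 327 mitochondrial UMIs, from 29 to 102 UMIs of nuclear members and from 673 to 10380 UMIs of other genes between the same bins. In BAT replicate 2 the mitochondrial UMIs went from 192 to 354 and the nuclear members from 22.9 to 104. In taPVAT replicate 2, where the lowest bin with at least 50 nuclei starts at 1000 UMIs, they went from 282 to 356 and from 28.4 to 96.9. As a share of all UMIs in taPVAT replicate 1, the mitochondrial members were 19.8% in the lowest bin and 2.94% in the highest. The bins are cut on total UMIs, which are mostly those of the other genes and include those of the members.

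**Figure D2:**
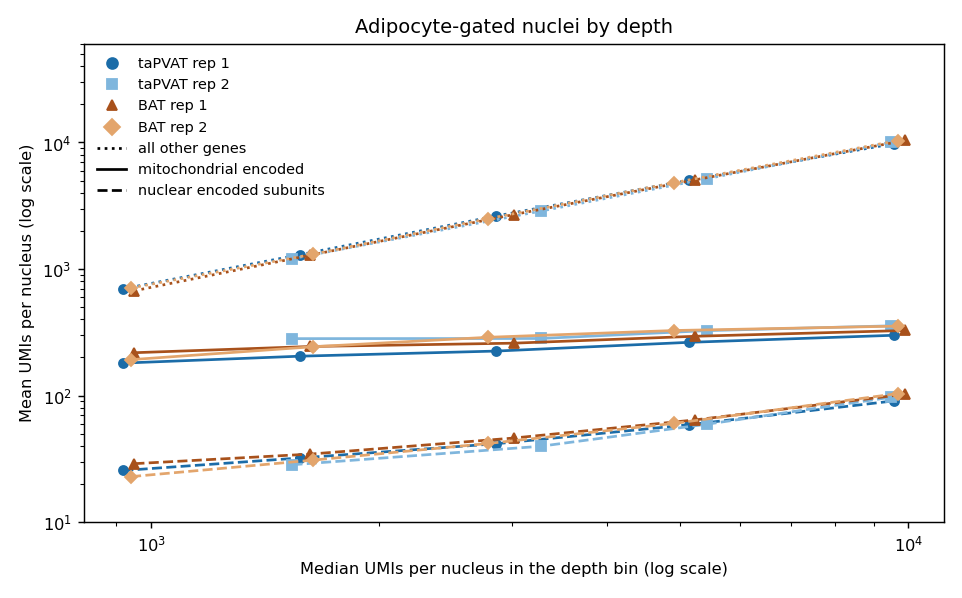
Mean UMIs per adipocyte-gated nucleus (log scale) against the median UMIs per nucleus of the depth bin (log scale), for mitochondrial members, nuclear members and all other genes except cytosolic ribosomal proteins. In taPVAT replicate 1 mitochondrial UMIs go from 181 to 300 per nucleus between the lowest and highest bin while other genes go from 698 to 9793.

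Nuclear members took a larger share of UMIs in adipocyte-gated nuclei with a larger mitochondrial share. The nuclei of each library were split into 5 equal groups (quintiles) by mitochondrial share. Nuclear members were counted per UMI that is not mitochondrial, so the split and the measure share no counts in the numerator. Both hold the UMIs that are not mitochondrial in the denominator, so split and measure are not independent. In taPVAT replicate 1, mean UMIs of other genes outside the cytosolic ribosomal proteins fell from 6263 in the lowest to 1346 in the highest quintile. Mitochondrial UMIs went from 232 to 254 there and from 274 to 365 in taPVAT replicate 2. In the BAT libraries they went from 267 to 306 and from 272 to 320. The part of the shared denominator in the rise of the nuclear member share was not tested. From the lowest to the highest quintile, the nuclear members went from 1.02% to 2.62% in taPVAT replicate 1, from 0.986% to 1.53% in taPVAT replicate 2, from 1.04% to 2.27% in BAT replicate 1 and from 1.16% to 2.37% in BAT replicate 2. Over nuclei of all depths the rise was in the share only. Mean UMIs of nuclear members per nucleus fell from 64.4 to 36.5 and from 78.2 to 40.7 in the taPVAT libraries. In the BAT libraries they fell from 81.5 to 42.4 and from 62.3 to 35.1. Of the 72 nuclear members with a mean of at least 20 CPM of UMIs that are not mitochondrial, 67 were higher in the highest quintile in 4 of 4 libraries and 0 were lower in 4 of 4, where 35.9% of all 5911 genes at that level were higher and 24.6% were lower. The median log2 ratio was 1.23 over these members and 0.03 over all genes. The same nuclei also moved in depth: in taPVAT replicate 1 the median fell from 6096 UMIs in the lowest to 1534 in the highest quintile. Among nuclei of 2000 to 4000 UMIs, 60 of 72 members were higher in 4 of 4 libraries, against 25.9% of all genes, with a median log2 ratio of 0.55. Depth still differed within this band, with a median of 3358 UMIs in the lowest and 2411 in the highest quintile of taPVAT replicate 1. Quintiles were compared within each library, and no test was run because nuclei are not replicates.

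The members differed widely in this respect. The ratios below are log2 values of the highest over the lowest quintile on a scale with 1 added to each CPM value. Cox6a1, the widely expressed isoform of subunit 6a, had ratios of 2.12 and 1.45 in the taPVAT libraries and 1.84 and 1.62 in the BAT libraries. Uqcr10, a small subunit of complex III, had 2.05, 1.46, 1.75 and 1.71, and Ndufb11, a membrane-arm subunit of complex I, had 2.00, 1.36, 1.74 and 1.5. Atp5f1e, the epsilon subunit of the ATP synthase rotor, had a mean of 1.63 and Cox4i1 of 1.35. At the other end stood the 5 members that were not higher in all 4 libraries. Ndufs4 had ratios of 0.00, -0.21, -0.07 and -0.13, so its level per UMI was nearly the same in both quintiles. Ndufc1 had a mean of 0.06, Ndufa10l1 of 0.06, Ndufs1 of 0.12 and Uqcrc2 of 0.16. The 4 subunits of succinate dehydrogenase were also low, with means of 0.27 for Sdha, 0.35 for Sdhc, 0.39 for Sdhb and 0.44 for Sdhd.

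**Figure D3:**
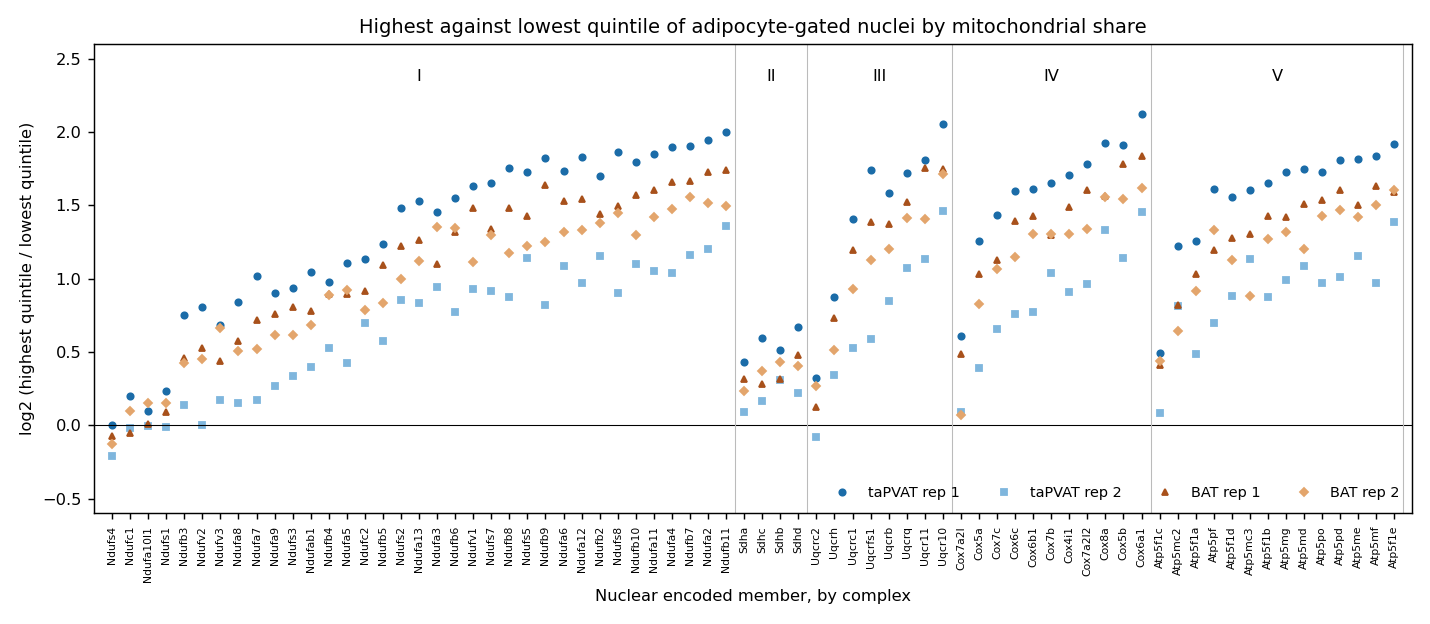
log2 ratio of the highest over the lowest quintile of adipocyte-gated nuclei by mitochondrial share, for the 72 nuclear members with a mean of at least 20 CPM, ordered within complexes I to V. Each point is 1 library, and 67 of 72 members lie above 0 in all 4, with Ndufs4 at a mean of -0.10 and Cox6a1 at 1.76.

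Genes of other lists were set beside the members in the same quintiles. Cytosolic ribosomal proteins, whose mRNAs are also short and cytoplasmic, were higher in 4 of 4 libraries for 62 of 62 genes, where 35.9% of all genes were higher and 24.6% lower, with a median log2 ratio of 1.52. Assembly factors, the proteins that build the complexes without staying in them, were higher for 10 and lower for 8 of 28. Regulators of mitochondrial genes were higher for 2 and lower for 6 of 13. Among nuclei of 2000 to 4000 UMIs the ribosomal proteins were higher for 63 of 63 with a median of 0.69, the assembly factors were higher for 7 and lower for 6 of 29, and the regulators were higher for 0 and lower for 3 of 13. In that band 1530 of 5904 genes, or 25.9%, were higher and 783 lower. Ppargc1a, the coactivator PGC-1 alpha, went from 3553 CPM of UMIs that are not mitochondrial in the lowest quintile to 2678 CPM in the highest in taPVAT replicate 1, from 15941 to 11681 in taPVAT replicate 2, from 1738 to 1231 in BAT replicate 1 and from 14307 to 10516 in BAT replicate 2. The 12 adipocyte markers together were nearly level, with 1.93% and 1.86% in taPVAT replicate 1. The part that cytoplasmic RNA took in these ratios was not tested.

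Gates were compared within libraries with edgeR's quasi-likelihood test on summed counts, with the library as a term and Benjamini-Hochberg adjustment over all genes tested. The study names 2 rats per tissue, and the labels do not tie a library to a rat. The p-values measure how the difference between gates within a library varied over these libraries of both tissues. Against fibroblast-gated nuclei, 26 of the 96 members tested were called at an adjusted p under 0.05, where 36.1% of all genes were. Of these, 22 members (22.9%) were higher and 4 (4.17%) lower in the adipocyte gate, where 18% and 18.1% of all genes were. Against vascular endothelial-gated nuclei, 21 of 94 were called, where 38.9% of all genes were, with 9 (9.57%) higher and 12 (12.8%) lower, where 18.7% and 20.2% of all genes were. Against myeloid-gated nuclei, 31 of 94 were called, where 36.5% of all genes were, with 18 (19.1%) higher and 13 (13.8%) lower, where 19.3% and 17.2% of all genes were. The counts against vascular endothelium moved with single libraries, to 5 higher and 3 lower when BAT replicate 1 was left out, to 3 and 8 when BAT replicate 2 was and to 9 and 19 when taPVAT replicate 2 was. Against fibroblasts they were 12 and 5 when BAT replicate 2 was left out and 19 and 2 when BAT replicate 1 was. Against myeloid nuclei they were 16 and 2 when BAT replicate 1 was left out, 15 and 3 when BAT replicate 2 was and 15 and 8 when taPVAT replicate 1 was. Over the fits that leave out 1 library, 11.8% to 16.1% of all genes were higher and 15.4% to 16.7% lower against fibroblasts, 9.24% to 18.0% and 16.8% to 19.9% against endothelium, and 14.8% to 17.8% and 15.1% to 17.0% against myeloid nuclei. Without BAT replicate 1 the shares against endothelium were 11.7% and 17.0%, and without BAT replicate 2 they were 9.24% and 16.8%. Median log2 fold changes of the nuclear members were 0.07, -0.11 and 0.04 against the fibroblast, vascular endothelial and myeloid gates, with medians of 0.06, 0.07 and 0.12 over all genes. With library totals in place of scaling factors the medians moved to -0.12, -0.24 and -0.20 for the nuclear members and to -0.13, -0.05 and -0.11 for all genes, so the sign of both medians turned against fibroblast and myeloid nuclei. Among nuclei with at least 1000 genes the nuclear members' median against vascular endothelial nuclei turned to 0.19, beside 0.08 over all genes, and the limit of at most 5% mitochondrial UMIs turned it to 0.23, beside 0.10. With the 50% of each other gate's nuclei that had the lower adipocyte marker share, an alternative chosen after seeing the data, the members' medians were -0.22, -0.50 and -0.33 while those of all genes were 0.12, 0.12 and 0.29. The nuclei kept by this cut also had fewer UMIs than their whole gate, as given below. The 3 comparisons share the adipocyte-gated sums.

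Atp5pb, Ndufa10l1, Ndufc1, Ndufs1, Ndufs3, Ndufs4, Sdhb, Sdhc and Uqcrc2, 9 of the 94 members tested in all 3 comparisons, were called higher in each, which is 9.57% where 9.85% of 13879 genes were. Of these 9, only Ndufa10l1 kept its calls in all 3 comparisons under every alternative run. Ndufs1, the largest iron-sulphur subunit of the peripheral arm of complex I, had 144, 154, 140 and 148 CPM in the adipocyte gate and 128, 91.7, 105 and 112 CPM in the fibroblast gate, both taPVAT libraries first. The gates did not overlap, and the log2 fold change was 0.61 with a standard error of 0.12 (edgeR, adjusted p = 0.0014). Ndufa10l1 had 234, 241, 290 and 266 CPM in the adipocyte gate against 203, 173, 212 and 183 CPM in the fibroblast gate, again without overlap. Its log2 fold changes were 0.62, 0.59 and 0.57 against the fibroblast, vascular endothelial and myeloid gates (edgeR, adjusted p = 0.00052, 0.0032 and 4.5e-06). Sdhb had 317, 302, 350 and 304 CPM in the fibroblast gate, all below its lowest adipocyte value of 373 CPM, and log2 fold changes of 0.56, 0.46 and 0.41 in the 3 comparisons. Uqcrc2, a core subunit of complex III, had 339, 255, 301 and 238 CPM in the fibroblast gate, which overlapped with the adipocyte range of 326 to 384 CPM across libraries but lay below it within each library. Ndufc1, a small accessory subunit of complex I, had log2 fold changes of 0.56, 0.53 and 0.58. Atp5pb, the b subunit of the peripheral stalk of the ATP synthase, had the largest, 0.69, 0.63 and 0.78, at only 9.50 to 13.2 CPM in the adipocyte gate. It had 5.48 to 12.0 CPM in the fibroblast, 6.33 to 10.5 in the vascular endothelial and 2.13 to 12.2 in the myeloid gate. All 3 ranges overlapped with that of the adipocyte gate.

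All 4 subunits of succinate dehydrogenase were called higher than in fibroblast-gated and in myeloid-gated nuclei, where 18% and 19.3% of all genes were. Against the vascular endothelial gate Sdhb and Sdhc passed and Sdha and Sdhd did not, and without BAT replicate 2 none of the 4 did, while without BAT replicate 1 Sdhc alone did. All 4 passed there with DESeq2, without the expression filter and with the 50% of nuclei of the lower adipocyte marker share, and 3 passed at 1000 genes, without doublet removal, in the stricter gate and without taPVAT replicate 2. With library totals the 4 calls fell to Sdhb, Sdhc and Sdhd against fibroblasts and to Sdhc against myeloid nuclei, and the limit of at most 5% mitochondrial UMIs left Sdhb against fibroblasts. The 21 members called higher than in fibroblasts that had a mean of at least 20 CPM had a median log2 ratio of 0.44 between the mitochondrial-share quintiles, with a range of -0.10 to 1.21. The 51 such members not called had a median of 1.36, with a range of 0.36 to 1.76. Both sets of values use the adipocyte-gated nuclei, so they are given side by side as a description.

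With all gated nuclei, all 13 mitochondrial members had a log2 fold change below 0 in each comparison, with medians of -0.29, -0.49 and -0.30 against the fibroblast, vascular endothelial and myeloid gates. Of the 13, 2, 6 and 11 passed the test, where 18.1%, 20.2% and 17.2% of all genes were called lower. These calls depended on single libraries: when BAT replicate 1 was left out 0 of the 13 were called in any comparison, when BAT replicate 2 was left out 1 was called against myeloid nuclei, and when taPVAT replicate 2 was left out 13 were called against endothelium. Mt-nd5 and Mt-nd6, both complex I subunits, were the ones called in all 3. Mt-nd6 had 150, 99.8, 116 and 240 CPM in the adipocyte gate against 197, 202, 163 and 320 CPM in the fibroblast gate, lower within each library but overlapping across them. Its log2 fold change was -0.37 with a standard error of 0.11 (edgeR, adjusted p = 0.015), and the adjusted p was 0.053 when BAT replicate 1 was left out. Among nuclei with at least 1000 genes the medians were -0.11, -0.05 and 0.01, and 0 of the 13 were called in any of the 3 comparisons. There all 13 were below 0 against the fibroblast and vascular endothelial gates, and 5 were below and 8 above 0 against the myeloid gate. Among nuclei with at most 5% mitochondrial UMIs, a limit that cuts on the members themselves and so bears on the direction of their difference, all 13 lay above 0 against the fibroblast and vascular endothelial gates, with medians of 0.22 and 0.30. There 10 and 12 of the 13 were called higher and 0 lower, where 5.71% and 8.65% of all genes were higher and 7.66% and 10.3% lower, and the fold change of Mt-nd6 against fibroblasts was 0.17. With library totals all 13 were called lower in each comparison, and over all members the calls became 10 higher and 20 lower against fibroblasts, 8 and 44 against endothelium and 5 and 38 against myeloid nuclei, where 9.23%, 13.4% and 8.60% of all genes were higher and 23.1%, 22.9% and 21.2% lower. With the 50% of each other gate's nuclei with the lower adipocyte marker share the medians of the 13 were -0.88, -1.15 and -1.02 and all 13 were called lower in each comparison. Over all members the calls were then 14 and 25, 10 and 56, and 13 and 30, where 23.3%, 27.5% and 23.3% of all genes were higher and 20.5%, 24.7% and 18.8% lower. The cut by adipocyte marker share also took nuclei with fewer UMIs. In taPVAT replicate 1 the median went from 2227 to 1533 UMIs in the fibroblast gate and from 1833 to 1393 in the vascular endothelial gate. It went from 2295 to 1438 in the myeloid gate, while the adipocyte gate stayed at 3034. The part of depth in these medians and calls was not tested.

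**Figure D4:**
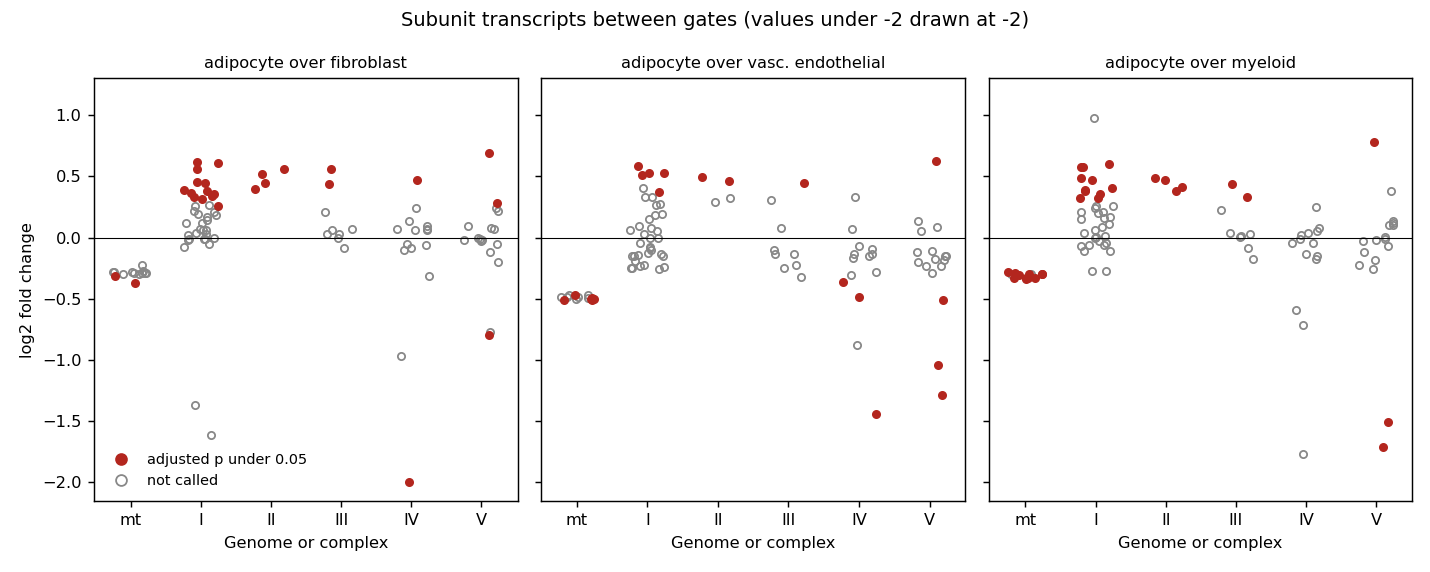
log2 fold change of each member tested, adipocyte gate over 3 other gates, for mitochondrial members (mt) and nuclear members of complexes I to V, with filled points at an adjusted p under 0.05. With all gated nuclei the mitochondrial members lie below 0 in each panel, and Cox6b2 against fibroblasts (-4.07) is drawn at -2.

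Among nuclear members, the inhibitor of the ATP synthase was lower in adipocyte-gated nuclei in all 3 comparisons. Atp5if1, which binds complex V and blocks ATP hydrolysis when the gradient fails, had 7.21 and 5.01 CPM in the taPVAT and 5.95 and 8.08 CPM in the BAT libraries of the adipocyte gate. It had 13.9, 12.6, 12.0 and 13.5 CPM in the fibroblast gate, 14.2, 28.8, 15.3 and 18.0 CPM in the vascular endothelial gate and 20.2, 29.3, 17.3 and 19.5 CPM in the myeloid gate. No value of these gates fell within the adipocyte range. The log2 fold changes were -0.80, -1.29 and -1.5 with standard errors of 0.17, 0.20 and 0.26 (edgeR, adjusted p = 0.0030, 0.00078 and 3.8e-07). Against fibroblasts the call was lost among nuclei with at least 1000 genes, at a log2 fold change of -0.54, and among nuclei with at most 5% mitochondrial UMIs, at -0.08. The limit of 5% also ended the call against endothelium, at -0.47.

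Atp5mc1, 1 of 3 genes for the c subunit of the rotor ring, had 2.55, 1.28, 2.48 and 2.54 CPM in the adipocyte gate against 5.65, 5.24, 5.17 and 4.70 CPM in the vascular endothelial gate. It had 7.46, 11, 6.59 and 8.88 CPM in the myeloid gate. The log2 fold changes were -1.04 and -1.71 (edgeR, adjusted p = 0.0043 and 0.00029), and neither gate overlapped with the adipocyte gate. These gates held 104 and 29 UMIs of the gene. Against fibroblasts it was not called, and the 1.62 to 6.06 CPM of that gate overlapped with the adipocyte range. Both calls were lost in the stricter gate, at -0.87 and -1.93, and the call against endothelium also under the limit of 5% mitochondrial UMIs, at -0.71. The other two c subunit genes, Atp5mc2 and Atp5mc3, encode the same mature protein. Atp5mc2 had 35.7 to 49.4 CPM in the adipocyte gate and 44.5 to 59.9 CPM in the vascular endothelial gate, and Atp5mc3 had 17.5 to 30.9 and 28.4 to 36.9 CPM. Neither was called in a gate comparison.

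A pair of isoforms that were rare in the other gates had their highest levels in mural-gated nuclei. Cox4i2, the isoform of cytochrome c oxidase subunit 4 known from lung and from oxygen sensing, had 21.2 and 37.0 CPM in the mural gate of the taPVAT libraries and 9.65 and 24.1 CPM in that of the BAT libraries. In the adipocyte gate it had 0.873, 0.557, 0.453 and 0.522 CPM, and the highest value in any other gate with all 4 libraries was 5.98 CPM, from 1 UMI. Ndufa4l2, a paralogue of Ndufa4 induced by low oxygen and known as a marker of pericytes, had 18.4, 19.9, 17.4 and 16.7 CPM in the mural gate and 0.265 to 0.510 CPM in the adipocyte gate, with at most 2.16 CPM in the others. All 4 mural libraries lay above every library of the other gates for both genes. They rest on 96 and 89 UMIs in the mural gate, no fit was made for it, and neither gene was among its markers. The common isoforms did not share this pattern: Cox4i1 had 461 to 617 CPM in the mural gate and 330 to 541 CPM in the adipocyte gate, and Ndufa4 had 287 to 415 and 221 to 367 CPM.

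**Figure D5:**
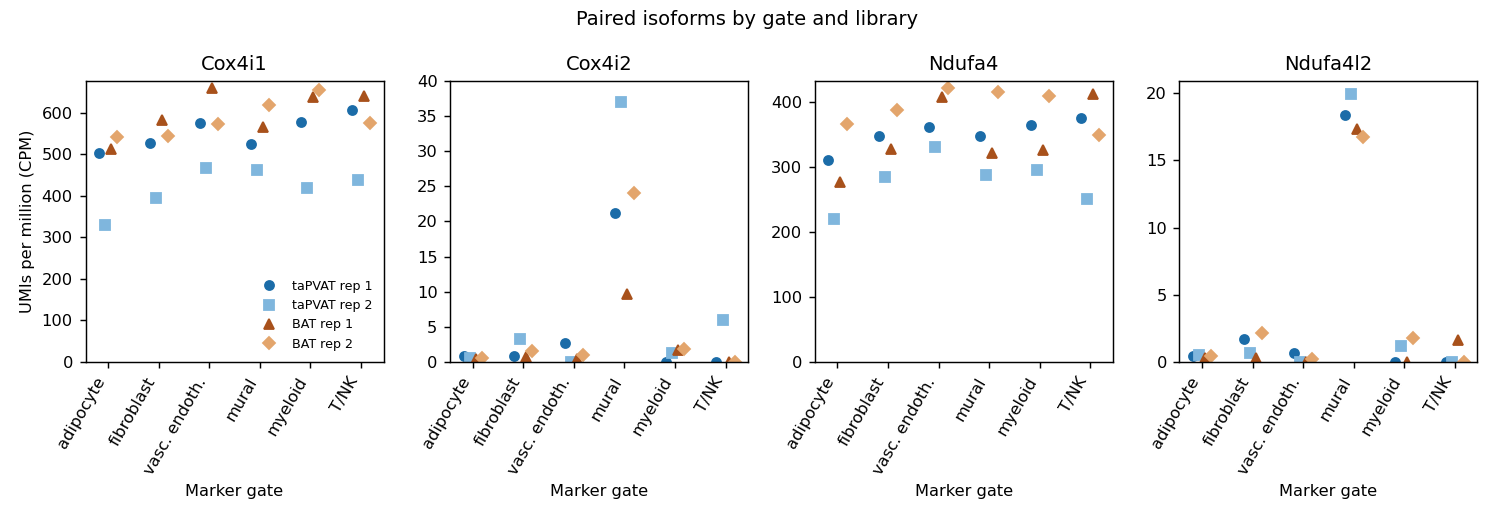
CPM of Cox4i1, Cox4i2, Ndufa4 and Ndufa4l2 in 6 marker gates, 1 point per library, with an axis of its own for each gene. Cox4i2 (9.65 to 37.0 CPM) and Ndufa4l2 (16.7 to 19.9 CPM) are highest in the mural gate, while Cox4i1 and Ndufa4 are spread over all gates.

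Other tissue-restricted isoforms were near the limit of detection. Cox7a1, the isoform of subunit 7a of heart, muscle and brown fat, had 0.223 and 0.348 CPM in the taPVAT and 0.188 and 0.485 CPM in the BAT libraries of the adipocyte gate, from 79 UMIs. It was lower there than in the vascular endothelial gate, which had 0.461 to 1.75 CPM from 16 UMIs, at a log2 fold change of -1.44 (edgeR, adjusted p = 0.031), and leaving out any 1 library ended the call. Cox6b2, an isoform known from testis, had 17 UMIs in the adipocyte gate and 12 in the far smaller fibroblast gate, at 0.0373 to 0.0696 and 0.539 to 1.99 CPM, with a log2 fold change of -4.07 (edgeR, adjusted p = 0.00040). Cox6a2, the isoform of striated muscle, had 0.168 to 0.210 CPM against 118 to 212 CPM for Cox6a1 in the same nuclei. Cox7b2 had 0 UMIs in all 4 libraries. Over all kept nuclei of a library, a count of 3 UMIs would be 0.0220 to 0.0530 CPM. That count is about the 95% upper limit for a count of 0. This limit covers counting error only, and it is higher in a gate, which holds fewer UMIs. In the fibroblast gate Cox6b2 rests on 4 and 3 UMIs in the taPVAT and 4 and 1 in the BAT libraries. Ndufa1 had 0.0660 to 0.159 CPM and Ndufs6 0.0248 to 0.0734 CPM over all nuclei, although both belong to the standard set of complex I subunits. Genes with near-identical copies are uncertain, because the sources used here do not give the annotation release or how reads that match several genes were handled.

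Between the tissues, no member passed the test. In the fit of all nuclei, 0 of 97 members tested and 0% of 16625 genes had an adjusted p under 0.05 by edgeR, with 0 members and 472 genes at an unadjusted p under 0.05. DESeq2 called 100 genes and 0 members. In adipocyte-gated nuclei 0 of 95 members were called and 0% of 15485 genes, with 315 genes at an unadjusted p under 0.05, and DESeq2 called 57 genes and 0 members. The fibroblast and vascular endothelial gates gave 0 of 90 and 0 of 91 members, with 0% of genes in either. In all nuclei the median log2 fold change of taPVAT over BAT was -0.12 over the nuclear and -0.20 over the mitochondrial members tested, against 0.00 over all genes. The nuclear median was -0.31 without taPVAT replicate 1, -0.02 without taPVAT replicate 2, -0.22 without BAT replicate 1 and -0.05 without BAT replicate 2, and it was 0.03 among nuclei with at most 5% mitochondrial UMIs. In adipocyte-gated nuclei these were -0.15, -0.25 and 0.01. There the nuclear median was -0.33 without taPVAT replicate 1, -0.06 without taPVAT replicate 2, -0.29 when BAT replicate 1 was left out and -0.03 when BAT replicate 2 was. The mitochondrial median was -0.65 without BAT replicate 1, turned to 0.14 without BAT replicate 2 and was 0.06 among nuclei with at most 5% mitochondrial UMIs. With 2 libraries per tissue the mean mitochondrial share was 6.70% ± 0.16 (SD, n = 2) in taPVAT and 7.77% ± 1.64 (SD, n = 2) in BAT, a difference smaller than the spread between the BAT libraries, and without BAT replicate 2 the median of the mitochondrial members in all nuclei turned to 0.12, and without BAT replicate 1 it was -0.53.

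Some members nevertheless had libraries that did not overlap between tissues. Of 76 nuclear members with a mean of at least 5 CPM over all nuclei, 15 had both taPVAT libraries below both BAT libraries, where 8.94% of all 9300 genes did, and 2 had them above, where 7.65% did. Of the 13 mitochondrial members, 4 had both taPVAT libraries below: Mt-nd4, Mt-co3, Mt-atp6 and Mt-atp8. Mt-atp8, which overlaps Mt-atp6 on the mitochondrial DNA, had 144 and 141 CPM in taPVAT and 192 and 225 CPM in BAT, at a log2 fold change of -0.53 with a standard error of 0.24 (edgeR, adjusted p = 1.0). Mt-nd4, a membrane subunit of complex I, had 3637 and 3828 CPM in taPVAT and 4076 and 4147 CPM in BAT. In adipocyte-gated nuclei 13 of 76 nuclear members were below without overlap, where 9.18% of 8766 genes were, and 1 was above, where 7.12% were. Members of a complex and of a genome move with the same library, so these counts are not independent.

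The gates were also compared for genes that build the complexes or control their transcription. Of 41 assembly factors tested, 15, 16 and 15 were higher and 0, 0 and 2 lower than in the fibroblast, vascular endothelial and myeloid gates, where 18%, 18.7% and 19.3% of all genes were higher and 18.1%, 20.2% and 17.2% lower, and with library totals 10, 10 and 7 were higher and 0, 0 and 2 lower. Cox10, which makes haem for cytochrome c oxidase, had log2 fold changes of 0.83, 0.80 and 0.81, and Sdhaf3, an assembly factor of succinate dehydrogenase, had 0.77, 0.80 and 0.82. Of 21 regulators, 10, 8 and 8 were higher and 2, 3 and 1 lower, and with library totals 8, 7 and 5 and 2, 4 and 2. Ppargc1b, a coactivator of mitochondrial genes, had log2 fold changes of 0.91, 0.92 and 0.81, Esrra, an estrogen-related receptor that binds many of their promoters, had 0.75, 0.72 and 0.58, and Nrf1 had -0.49, -0.48 and -0.54. Cytosolic ribosomal proteins had 0 higher calls and 12, 56 and 64 lower ones among 77, 76 and 77 tested, and with library totals 59, 64 and 66 lower ones. With library totals fewer of all genes were called higher and more were called lower than with scaling factors. Those shares are given above with the mitochondrial members. Ucp1 was higher by 0.72, 0.65 and 0.53. It was listed with Cycs, the gene of cytochrome c, as a partner of respiration. Of these 2 genes 1 was called higher and 0 lower in each comparison, with medians of 0.37, 0.26 and 0.32. Against the vascular endothelial gate only 1 of the 2 lay above 0.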

How the data were processed

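Per the labels and the submitters' processing notes, the authors made the matrices with Cell Ranger 7.1.0, and Rnor_6.0 is the build named there. The deposited values are raw UMI counts per gene and barcode, with a lowest total of 500 UMIs per barcode. Whether introns were counted is not given in the sources used. Barcodes with at least 500 genes were kept, and doublets were called with Scrublet in scanpy 1.11.5 at an expected 0.8% per 1000 barcodes. It called 0 barcodes in BAT replicate 1, where the 6402 highest scores were removed instead, a number set by the median of called over expected doublets in the other 3 libraries. A gate needed 3 UMIs over 2 markers of its list and under 2 UMIs of each other non-adipocyte list, and the adipocyte gate 5 UMIs over 3 markers. Counts were summed per library and gate, filtered with filterByExpr, scaled by TMM and tested with edgeR 4.0.16 in R 4.3.3, with library totals after filtering as depth. DESeq2 1.42.0 was an alternative. CPM is the count per 1000000 UMIs of the library or gate, and fits were tested on simulated data. Named genes were all mitochondrial members, the 3 nuclear members with the highest mean CPM per complex, the 3 largest rises and falls called in each gate comparison, and fixed isoform pairs, of which Cox7a2 had no symbol in the files, while Cox8c had at most 1 UMI per library. Ndufb11, Uqcr10, Sdhd, Atp5f1e and other single genes outside that rule were picked after their values were seen. The members, gene lists and comparisons were chosen with earlier results of these data known. Promoter sequences are RefSeq's, build GRCr8.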

Additional observations from a re-analysis of the deposited data

How the results depend on the processing

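Counts of members called between tissues were 0 in all 4 tissue comparisons under every alternative run, and with a replicate block, the replicate number as a term, they were also 0, while calls over all genes went from 0 to 386, 244, 104 and 92 in all, adipocyte-gated, fibroblast-gated and vascular endothelial-gated nuclei. The labels do not pair the libraries, although same-numbered ones deviated together across genes (correlation 0.67 over 16625 genes in all nuclei). Gate comparisons depended on the processing, and the cause was not tested. Against fibroblasts, where 26 members were called (22 higher, 4 lower), library totals gave 10 higher and 20 lower, the limit of 5% mitochondrial UMIs 40 in all, 40 higher and 0 lower, and the 50% of nuclei with the lower adipocyte marker share 14 higher and 25 lower. Lower calls there numbered 1 at 1000 genes, 2 without doublet removal and 2 in the stricter gate. Against vascular endothelium, where 21 were called (9 higher, 12 lower), DESeq2 gave 34 (15 and 19), library totals 52 (44 lower), the limit of 5% 55 (55 higher, 0 lower) and the lower 50% 66 (56 lower). Higher calls numbered 16 without the expression filter and 15 at 1000 genes, and lower calls 2 at 1000 genes and 6 without doublet removal. Against myeloid nuclei, where 31 were called (18 higher, 13 lower), library totals gave 5 higher and 38 lower, the stricter gate 12 (11 and 1), 1000 genes 28 higher and 2 lower, no doublet removal 8 lower and the lower 50% 30 lower. The fit without Mt- genes and AC134224.3 does not hold the mitochondrial members, so its lower calls, 2, 6 and 2 in the 3 comparisons, with 20 members called in all against myeloid nuclei, fell by construction, and the nuclear members had as many calls in each direction as before (22 and 2, 9 and 6, 18 and 2). The share of all genes called moved too. Against fibroblasts, endothelium and myeloid nuclei it was 14.8%, 13.01% and 15.6% higher and 16.3%, 17.2% and 14.9% lower at 1000 genes, 15.4%, 16.0% and 11.6% higher and 15.0%, 19.3% and 11.47% lower in the stricter gate, and 18.0%, 17.0% and 18.1% higher and 17.8%, 19.5% and 16.8% lower without doublet removal. Against endothelium DESeq2 gave 23.7% higher and 19.5% lower and the fit without the expression filter 16.9% and 12.4%. With library totals it was 9.23%, 13.4% and 8.60% higher and 23.1%, 22.9% and 21.2% lower, and at the limit of 5% it was 5.71% and 8.65% higher and 7.66% and 10.3% lower against fibroblasts and endothelium. Leaving out 1 library at a time gave 17 to 22 members against fibroblasts (12 to 19 higher, 2 to 5 lower), 8 to 28 against vascular endothelium (3 to 9 higher, 3 to 19 lower) and 18 to 26 against myeloid nuclei (13 to 16 higher, 2 to 13 lower), where all genes called were 11.8% to 16.1% higher and 15.4% to 16.7% lower, 9.24% to 18.0% and 16.8% to 19.9%, and 14.8% to 17.8% and 15.1% to 17.0%. The libraries whose absence moved a count by over 1.5 times were BAT replicates 1 and 2 in all 3, taPVAT replicate 2 against endothelium and taPVAT replicate 1 against myeloid nuclei. Kept calls in every alternative with a value were 6 of the 22 higher against fibroblasts (Ndufa10l1, Ndufb3, Ndufs1, Ndufs4, Sdhb and Uqcrc2), 2 of the 9 against endothelium (Ndufa10l1 and Ndufc1) and 4 of the 18 against myeloid nuclei (Ndufa10l1, Ndufs1, Ndufs4 and Sdhc). Direction was kept by all of these 22, 9 and 18 genes. Of the lower calls, 1 of 4 (Cox6b2), 0 of 12 and 1 of 13 (Atp5if1) kept the call, and 2, 4 and 7 kept the direction. The log2 fold change of Mt-nd6 against fibroblasts turned to 0.17 at the limit of 5%. Averaged over the 4 libraries, shares without AC134224.3, a nuclear RNA of 13.9% to 15.6% of UMIs that are not mitochondrial, were 8.37% mitochondrial and 1.45% nuclear encoded in all nuclei and 1.46% nuclear encoded in adipocyte-gated nuclei. The limit of 5% against myeloid nuclei and a limit of 2 adipocyte marker UMIs in the other gate left under 20 nuclei in a library and were not run. The split by adipocyte marker share was chosen after seeing the data, and it also left nuclei with fewer UMIs in the other gates.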

Other observations

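Barcodes with fewer than 500 genes, which entered no comparison, held 172 to 274 mitochondrial UMIs and 22.9 to 28.8 UMIs of nuclear members on average, against 477 to 516 UMIs of other genes outside the cytosolic ribosomal proteins. Their mitochondrial counts per barcode lay near those of the shallowest adipocyte-gated nuclei. Ppargc1a was higher in replicate 2 than in replicate 1 of both tissues, with 2951 and 13101 CPM over all nuclei of the taPVAT libraries and 1431 and 11297 CPM over those of the BAT libraries. The nuclear members did not show such a split, with 1.38%, 1.15%, 1.37% and 1.49% of UMIs that are not mitochondrial in the same order. Ucp1 went the other way, with 891, 444, 1447 and 619 CPM.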
